A study of Homo sapiens with 8 samples.

Results

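The genes by which cells store, take up and sense iron were examined: FTH1 and FTL (the heavy and light chains of ferritin), TFRC (the transferrin receptor), NCOA4, IREB2, ACO1 and HMOX1. They were taken from the table by symbol, and no measured value enters the rule. The choice of these genes was made with earlier results of these data known. Of the 7 genes named, 6 are among the 16525 genes of the expression table and are described here, and HMOX1 is not analysed here. In the fit without pairing, none of the 6 passed the test for a difference between cytokine-exposed and control cells, beside 27.0% of all genes. TFRC had the largest estimated difference, a log2 fold change of 0.46 ± 0.36 (SE) and a higher level in the cytokine library of all 4 pairs. Over all genes, 65.8% lay on the same side in all 4 pairs in either direction, and 43.6% of all genes were lower in all 4. TFRC was called higher when TMM scaling was combined with the pairing of libraries (0.61, FDR 0.000129 by limma). Around them, 18.9% of 90 other genes of iron and heme metabolism were called, 8 higher and 9 lower, and with TMM scaling 15 were called higher and 7 lower. Among those that fell under both scalings were 4 of 10 genes of heme synthesis. Over all genes, 17.5% were called lower on CPM and 11.6% with TMM scaling.

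The cells were EndoC-βH5, a commercially supplied human beta-cell line, so all libraries come from 1 line. RNA-seq was done on 4 control samples, left without cytokines, and on 4 samples kept for 48 h with interleukin-1β (IL-1β, 50 U/mL), interferon-γ (IFNγ, 1000 U/mL) and tumor necrosis factor-α (TNFα, 1000 U/mL). The comparison asks how this inflammatory mixture, a model of the milieu of the islet in type 1 diabetes, changes the transcripts of beta cells. Nothing in the labels says that the 4 samples of a group were separate cultures, so p-values measure the spread between these samples.

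Iron enters most cells as ferric iron bound to transferrin, which the transferrin receptor carries into endosomes. Iron that is not used is stored inside ferritin, a hollow shell built of heavy and light chains. The heavy chain oxidizes iron and the light chain helps to form the mineral core. NCOA4 binds ferritin and takes it to the lysosome, where the iron is released again. Iron regulatory proteins 1 and 2, the products of ACO1 and IREB2, bind short RNA hairpins called iron-responsive elements (IREs) when iron is scarce. Binding near the start of a messenger, as in ferritin, blocks its translation, and binding behind the coding sequence, as in TFRC, protects the messenger from decay. IRP1 with an iron-sulfur cluster is instead the cytosolic aconitase. RNA-seq therefore reads the TFRC side of this control at the transcript and does not see control of ferritin at translation. Beta cells are known for a low antioxidant capacity, which makes free iron a hazard to them.

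The hairpins are shown because they are what distinguishes the members by mode of regulation. The sequences were read 5′ to 3′ on the gene's strand from the GENCODE 29 transcripts (GRCh38), and the capitals mark the 6 bases of the loop. The search asked for a C, 5 bases, the loop CAGTGN and 5 bases, with every base of the 5 on either side paired, G-U pairs included. The first pair lies in exon 1 of 4 and in the 5′ UTR of the ferritin genes, FTH1 at chr11:61967575-61967601 on the minus strand and FTL at chr19:48965336-48965362 on the plus strand.
FTH1: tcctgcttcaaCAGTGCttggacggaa
FTL: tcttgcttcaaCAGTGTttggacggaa
The other 4 lie in the 3′ UTR of TFRC, in exon 19 of 19 on the minus strand, at chr3:196050980-196051006, chr3:196050576-196050602, chr3:196050511-196050537 and chr3:196050464-196050490, in the order of the transcript.
TFRC a: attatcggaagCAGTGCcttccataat
TFRC b: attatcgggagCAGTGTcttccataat
TFRC c: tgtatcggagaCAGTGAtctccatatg
TFRC d: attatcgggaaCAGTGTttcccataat
The loop started at base 71 of the 1229-base FTH1 transcript and at base 47 of the 878-base FTL transcript, ahead of the coding sequences that start at bases 236 and 208. In the 5111-base TFRC transcript the 4 loops started at bases 3400, 3804, 3869 and 3916, behind the end of the coding sequence at base 2450. No match was found in the transcripts of NCOA4, IREB2 or ACO1. Among 13385 genes searched, 212 (1.58%) held at least 1 match and 5 held 2 or more. TFRC had the most, 4, and SLC35E2A had 3. A match is a description of letters and pairing, not a tested site of binding.

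**Figure D1:**
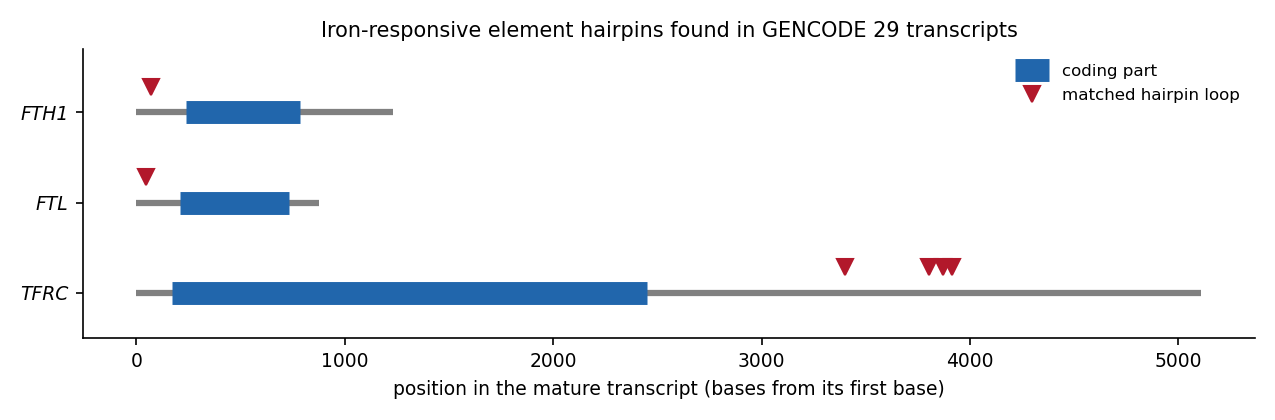
Transcripts of FTH1, FTL and TFRC drawn to scale along the base position from the 5′ end, with the coding sequence as the thick blue bar and the matched hairpin loops as red triangles. The loops at bases 71 and 47 lie ahead of the coding sequence in FTH1 and FTL, and the 4 loops at bases 3400 to 3916 lie behind it in TFRC.

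Expression was deposited as CPM, a gene's reads scaled to a common library total, and the reads behind each value were recovered from it. Between 36577438 and 40117636 reads fell on genes, 1 read was worth 0.0196 to 0.0214 CPM, and every member had at least 680 reads in each library, so counting error was small against the spread between libraries. Libraries are called A to D by the shared first part of their column names, which pairs each control with 1 cytokine library. A and B share an ending of the column name, and C and D share another, which the labels do not explain. Differences are log2 fold changes of cytokine over control on the log2(CPM + 0.1) scale, tested with limma over all genes with Benjamini-Hochberg adjustment (FDR). To be called, a gene had to differ by more than 0.5 on the log2 scale in either direction with an FDR under 0.05. By this rule 27.0% of all genes were called, 9.52% higher and 17.5% lower, and the median of all genes was -0.17. With TMM scaling, which centres the bulk of genes, that median was -0.01, so each difference lies about 0.16 higher on that scale.

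All 8 beta-cell markers on the list were in the table, and 4 of them were called, beside 27.0% of all genes. In falling order of mean CPM the 8 were CHGA, IAPP, INS, SLC30A8, PDX1, NKX6-1, NKX2-2 and MAFA. Their summed level was 23007 to 35174 CPM in controls and 28377 to 51405 CPM with cytokines. That sum weighs the most abundant markers and does not show the others. In the authors' TPM values, PDX1 and MAFA were lower with cytokines in every replicate, NKX6-1 was higher in every replicate and INS went both ways. Of 6 macrophage and leukocyte markers only CD14 was in the table, at 1.07 to 3.26 CPM in controls and 1.23 to 1.95 CPM with cytokines, and of 6 erythroid markers none was. Of 6 exocrine markers KRT19 and CPA1 were in the table, at a summed 88.2 to 167 CPM in controls and 84.6 to 166 CPM with cytokines, and CPA1 was called lower (8.41 and 4.04 CPM, -1.06, FDR 0.00201 by limma). The 2 fibroblast and endothelial markers in the table, of 5, summed to 3.56 to 5.30 and 4.29 to 6.41 CPM, and the 4 other islet hormones to 463 to 2177 and 553 to 1996 CPM. Their part in the results on iron genes was not tested. In bulk RNA, fewer cells of a type and less RNA per cell cannot be told apart.

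**Figure D2:**
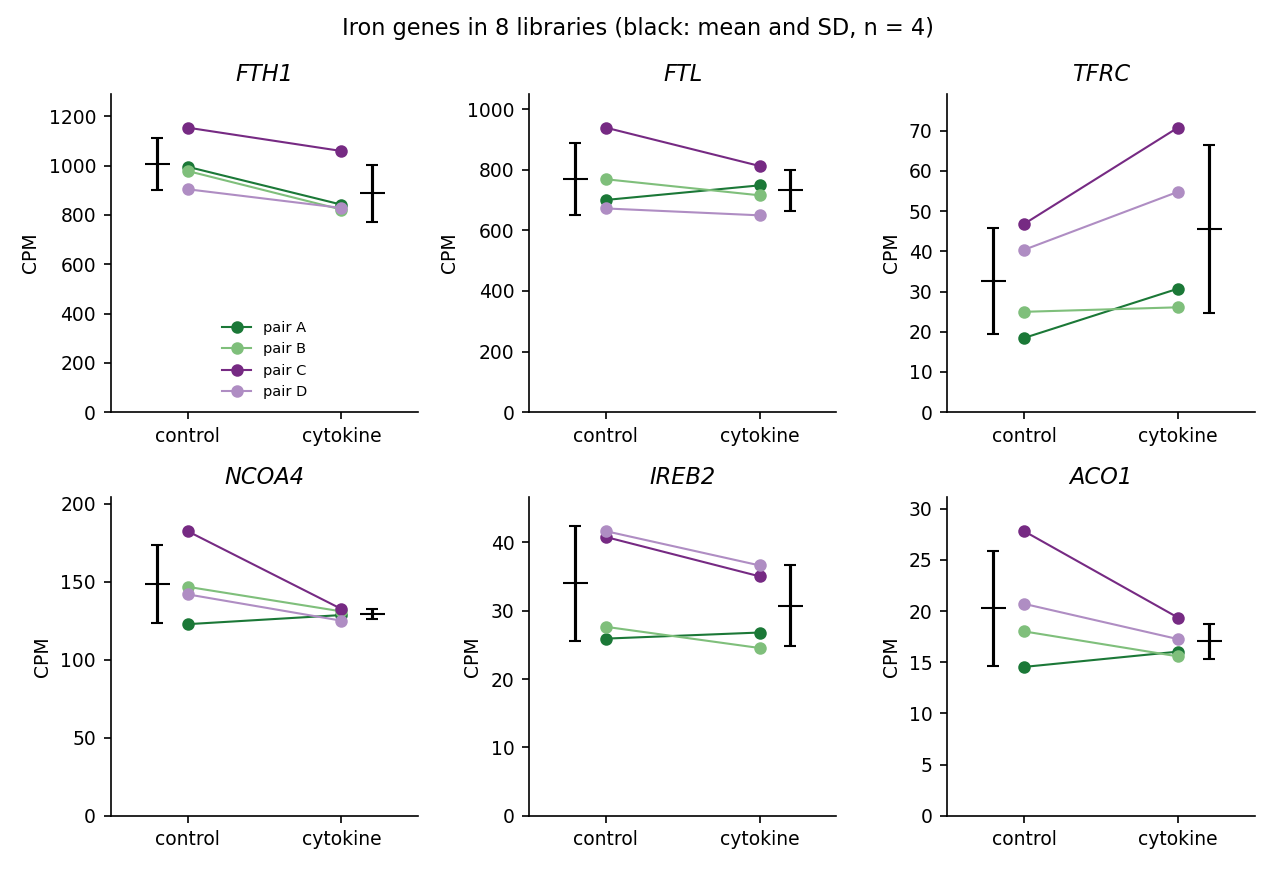
CPM of the 6 members in each control and cytokine library, with a line joining the libraries of a pair (A to D) and black bars for the mean and SD (n = 4), on a linear axis for each gene. The groups overlap for every member, and only TFRC is higher in the cytokine library of all 4 pairs, from 18.5 to 30.7 CPM in pair A and from 25.0 to 26.1 CPM in pair B.

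FTH1 (ENSG00000167996, chr11:61959718-61967660, minus strand) was the member with the most reads. It stood at 996, 979, 1154 and 904 CPM in control libraries A to D and at 842, 822, 1059.6 and 829 CPM in cytokine libraries A to D. Both groups had their highest value in library C, and cytokine library C lay above controls A, B and D, so the groups overlapped. The means were 1008 ± 105 and 888 ± 115 CPM (SD, n = 4), which is a log2 fold change of -0.19 ± 0.15 (SE, FDR 0.381 by limma, 95% interval -0.52 to 0.15). FTH1 was lower in the cytokine library of all 4 pairs, by log2 differences of -0.24, -0.25, -0.12 and -0.13. Of all genes, 43.6% were lower in all 4 pairs. The FTH1 estimate is close to the median of all genes, and with TMM scaling the log2 fold change was -0.03 (FDR 0.908 by limma).

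FTL (ENSG00000087086, chr19:48965301-48966878, plus strand) stood at 700.4, 769, 939 and 672 CPM in control libraries and at 749, 716, 812 and 649.6 CPM in cytokine libraries A to D. In CPM, library C was again the highest of both groups, D the lowest, and the groups overlapped. Library D also had the largest share of reads outside the listed genes. The means were 770.1 ± 119.7 and 732 ± 67.8 CPM (SD, n = 4). The log2 fold change was -0.07 ± 0.15 (SE, FDR 0.776 by limma, 95% interval -0.40 to 0.27) and turned to 0.09 with TMM scaling.

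The ratio of heavy to light chain transcripts does not depend on how a library is scaled. FTH1 over FTL in CPM was 1.42, 1.27, 1.23 and 1.35 in control libraries and 1.13, 1.15, 1.30 and 1.28 in cytokine libraries A to D. It was lower with cytokines in pairs A, B and D and higher in pair C, and the ranges overlapped. The log2 ratio was 0.40 ± 0.09 in controls and 0.28 ± 0.11 with cytokines (SD, n = 4), a difference of -0.12 (2-sided exact permutation p = 0.2, 0.343 adjusted over the 4 ratios tested).

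Ferritin genes have many processed copies. Reads that align to several places are left out by htseq-count's default setting, and others could be counted on the wrong gene. The annotation lists 25 numbered FTH1P and 16 numbered FTLP copies. Of the 100-base windows in the FTH1 transcript, the length of a read, 228 of 1130 (20.2%) also occurred in transcripts of 8 other genes, most often FTH1P7. For FTL it was 26 of 779 windows (3.34%), and for TFRC, NCOA4, IREB2 and ACO1 it was 0. FTH1 also overlaps BEST1 on the opposite strand over 1267 of its 2030 exon bases (62.4%). The libraries were made with a strand-specific kit and counted with htseq-count's defaults, which use strand.

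Only 1 of these copies, FTLP14 (chr16:68822587-68823070), is in the table. It stood at 1.22, 1.31, 0.796 and 0.391 CPM in control libraries and at 4.51, 3.25, 1.57 and 2.95 CPM in cytokine libraries A to D. Every cytokine library lay above every control, and the log2 fold change was 1.65 ± 0.39 (SE, FDR 0.00924 by limma). The copy lies within an intron of CDH1, the gene of E-cadherin, on the same strand, and CDH1 itself rose from 213.5 ± 14.2 to 798 ± 24.4 CPM (SD, n = 4), which is a log2 fold change of 1.90. Whether reads from unspliced CDH1 RNA enter the FTLP14 value was not tested.

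TFRC (ENSG00000072274, chr3:196027183-196082189, minus strand) carries transferrin-bound iron into the cell. It stood at 18.5, 25.0, 46.8 and 40.4 CPM in control libraries and at 30.7, 26.1, 70.8 and 54.8 CPM in cytokine libraries A to D. Libraries C and D were high in both conditions, A and B low, and the groups overlapped. The means were 32.6 ± 13.2 and 45.6 ± 20.98 CPM (SD, n = 4), which is a log2 fold change of 0.46 ± 0.36 (SE, FDR 0.363 by limma, 95% interval -0.33 to 1.24). The exact permutation test of CPM gave p = 0.371 (2-sided).

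Within pairs the TFRC difference was 0.73, 0.06, 0.60 and 0.44 on the log2 scale for A to D, so pair B hardly differed and the others were higher. The limma fit with the pair as a block left the log2 fold change at 0.46, with an interval of 0.25 to 0.66 and an FDR of 0.001, still under the fold threshold. With TMM scaling and the block the log2 fold change was 0.61 (interval 0.41 to 0.82, FDR 0.000129 by limma), and TFRC was then called higher, as were 15.9% of all genes (16.2% were called lower, 32.2% in all). TMM scaling without the block gave 0.61 with an FDR of 0.195 by limma, so both the scaling and the pairing were needed for the call. The share of the spread of log2 TFRC that went with the pair was 81.6%, against 14.2% with treatment and 4.24% with neither. Control libraries C and D averaged 2.01 times controls A and B, more than the 1.40 times of cytokine over control.

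**Figure D3:**
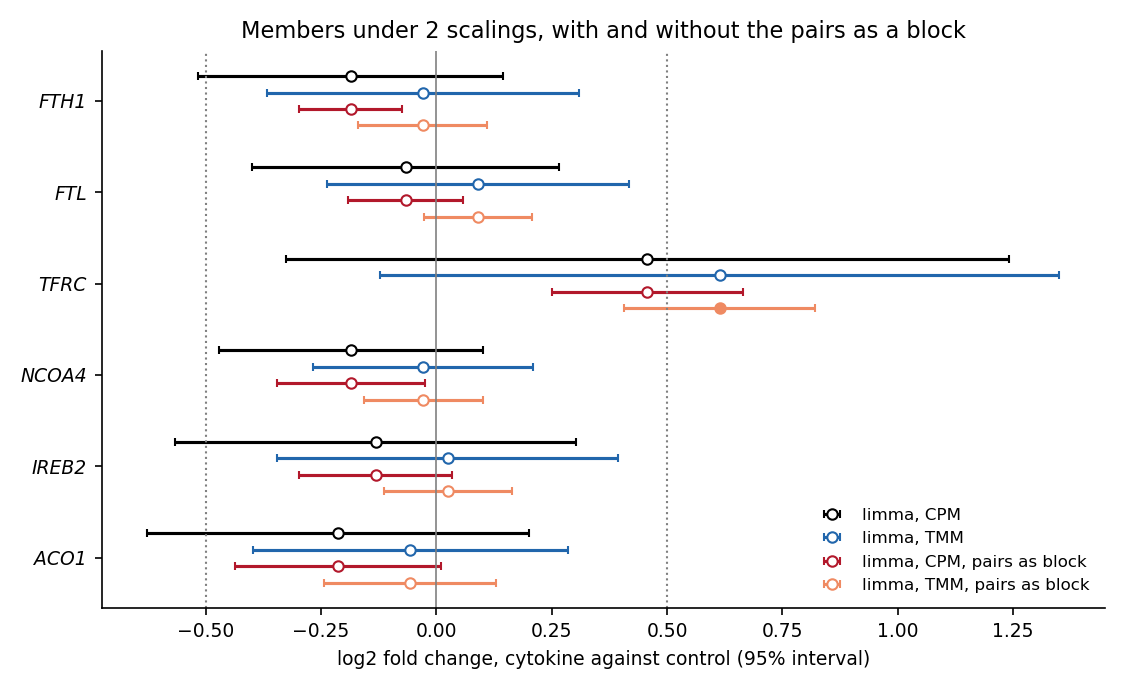
Log2 fold change of each member (cytokine over control) with its 95% interval, for the fit without a block, with the pair as a block, with TMM scaling, and with TMM scaling and the block. Dotted lines mark the fold threshold of 0.5 on either side, a filled point a called gene, and only TFRC with TMM scaling and the block (0.61) was called.

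The transcript ratio of receptor to storage was higher in the cytokine library of all 4 pairs, by a mean log2 difference of 0.64 for TFRC over FTH1 and 0.53 for TFRC over FTL. Neither passed the 2-sided exact permutation test (p = 0.171 and 0.257, both 0.343 adjusted over the 4 ratios tested). A paired test cannot go below 0.125 with 4 pairs, and it gave 0.125 for TFRC over FTH1.

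NCOA4 (ENSG00000266412, chr10:46005088-46030714, minus strand), the receptor that delivers ferritin to the lysosome, stood at 123, 147, 182 and 142 CPM in control libraries and at 129, 131, 133 and 125 CPM in cytokine libraries A to D. Cytokine libraries lay close together, and controls spread on both sides of them. The means were 148 ± 24.9 and 129 ± 3.27 CPM (SD, n = 4), which is a log2 fold change of -0.19 ± 0.13 (SE, FDR 0.310 by limma, 95% interval -0.47 to 0.10). The pairs differed by 0.07, -0.16, -0.46 and -0.18, so pair A went the other way.

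IREB2 (ENSG00000136381, chr15:78437431-78501456, plus strand) encodes iron regulatory protein 2. It stood at 25.9, 27.6, 40.8 and 41.6 CPM in control libraries and at 26.8, 24.5, 35.0 and 36.6 CPM in cytokine libraries A to D. C and D were above A and B in both conditions, and the groups overlapped. The means were 34.0 ± 8.37 and 30.8 ± 5.97 CPM (SD, n = 4), and the log2 fold change of -0.13 ± 0.20 (SE, FDR 0.654 by limma, 95% interval -0.57 to 0.30) turned to 0.02 with TMM scaling.

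ACO1 (ENSG00000122729, chr9:32384603-32454769, plus strand), the gene of iron regulatory protein 1, stood at 14.5, 18.0, 27.8 and 20.7 CPM in control libraries and at 16.0, 15.6, 19.4 and 17.3 CPM in cytokine libraries A to D. C was the highest library of both groups and A was the lowest control, within an overlapping range. The means were 20.3 ± 5.63 and 17.1 ± 1.70 CPM (SD, n = 4), which is a log2 fold change of -0.21 ± 0.19 (SE, FDR 0.427 by limma, 95% interval -0.63 to 0.20). The log2 ratio of IREB2 to ACO1 differed by 0.08 between conditions (2-sided exact permutation p = 0.543).

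Read together, 0 of the 6 members were called by limma against 27.0% of all genes, 0 had an unadjusted p under 0.05, and edgeR on the recovered reads also called 0 (24.5% of all genes). The estimates were lower for 5 members and higher for TFRC, with a median of -0.16 beside -0.17 over all genes, and with TMM scaling 3 were higher. None of the 6 was without overlap between the groups, beside 32.8% of all genes. On CPM, the limma fit with the pair as a block gave an FDR under 0.05 for FTH1, TFRC and NCOA4, all with differences under the fold threshold. The share of all genes under that FDR alone was not counted. With the fold threshold, 0 members and 35.4% of all genes were called in that fit. With TMM scaling and the block, TFRC was called as given above, and FTH1 and NCOA4 had an FDR of 0.718 and 0.701 by limma. The effect of cytokines in pairs C and D was not shown to differ from that in A and B for any member (limma interaction, FDR 0.999 for each), a test that 5 of the 16525 genes passed.

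The spread of log2 CPM over the 8 libraries was divided between treatment, pair and the rest, which hold 1, 3 and 3 of the 7 degrees of freedom. The pair took 91.5% of the spread of log2 IREB2, 83.6% of FTL, 66.8% of ACO1 and 66.3% of FTH1, and 42.1% of NCOA4, beside a median of 46.3% over all genes. Treatment took between 4.38% (FTL) and 30.5% (FTH1), beside a median of 36.2%. Controls C and D averaged 1.54 times controls A and B for IREB2, 1.49 times for ACO1 and 1.20 times for NCOA4, but 1.10 times for FTL and 1.04 times for FTH1. What the endings of the column names stand for is not given in the sources used here, and their part in these differences was not tested.

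Levels can be set side by side between genes only per length. In control libraries the mean was 877 ± 136 CPM per kilobase of annotated exon for FTL, 497 ± 51.8 for FTH1, 36.4 ± 6.10 for NCOA4, 4.14 ± 1.67 for TFRC, 3.15 ± 0.775 for IREB2 and 2.68 ± 0.745 for ACO1 (SD, n = 4). With cytokines the order was the same, at 833 ± 77.2, 437 ± 56.5, 31.7 ± 0.802, 5.78 ± 2.66, 2.85 ± 0.553 and 2.26 ± 0.225 CPM per kilobase (SD, n = 4). The control ranges of TFRC, IREB2 and ACO1 overlapped. The gap between the ferritin chains rests on the length used: per kilobase of the single transcripts used for the hairpin search, FTH1 stood at 820.4 ± 85.5 and FTL at 877 ± 136 CPM in controls, with overlapping ranges. Both ferritin messengers were far above the receptor and both regulators on either length.

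By likeness of pattern over the 8 libraries, the 2 closest genes of each member (Pearson's r of log2 CPM, among 14683 genes) were DYNLT3 (0.988) and ATP6V1E1 (0.987) for TFRC, RPLP1 (0.989) and VASP (0.986) for FTH1, and RHOB (0.973) and CXXC5 (0.968) for FTL. For NCOA4 they were SERPINB1 (0.974) and PSMC2 (0.966), for IREB2 LINC02645 (0.995) and ZNF567 (0.993), and for ACO1 DUSP22 (0.992) and NAA30 (0.990). The 8 points share pairs and treatment, so these values describe the libraries only.

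Promoter sequences (RefSeq, GRCh38.p14, 250 bases before to 50 after the start) were at hand for 5 members, and FTH1 and HMOX1 had no entry. The promoter of TFRC is shown for its ACGTG, the core of the hypoxia response element, which was found once in the window chr3:196082041-196082340 (minus strand), at position -88 from the start.
TFRC promoter: gcgagcgtACGTGcctcagga
The capitals mark the motif. FTL held ACGTG once, on the reverse strand, and ACGTG was found on either strand in 21.4% of 35116 promoters. TTCNNNGAA, the pattern bound by STAT factors, was found in none of the members' windows and in 7.66% of all. TGACNNNGC, the core of the antioxidant response element, was found in 1 window of NCOA4 and in 13.3% of all. A match says only that the letters are there.

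The wider iron and heme genes were read from a list of 110 genes in 10 groups, of which 90 are in the table and the others are not analysed here. Of the 90, 8 were called higher and 9 lower (18.9%, beside 27.0% of all genes), and their median log2 fold change was -0.10 beside -0.17. The direction split depended on the scaling. With TMM scaling 15 were called higher and 7 lower (24.7% of all genes, 13.1% higher and 11.6% lower), and 15 of these 22 were among the 17 above. The other 7 were CUL1, NUBP1, OSGIN1, PCBP1, SLC11A2, SLC3A2 and UROS, which are named for that change, and FLVCR1 and NFS1 were lost. With the pair as a block 13 were higher and 15 lower (35.4% of all genes, 11.6% higher and 23.8% lower).

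**Figure D4:**
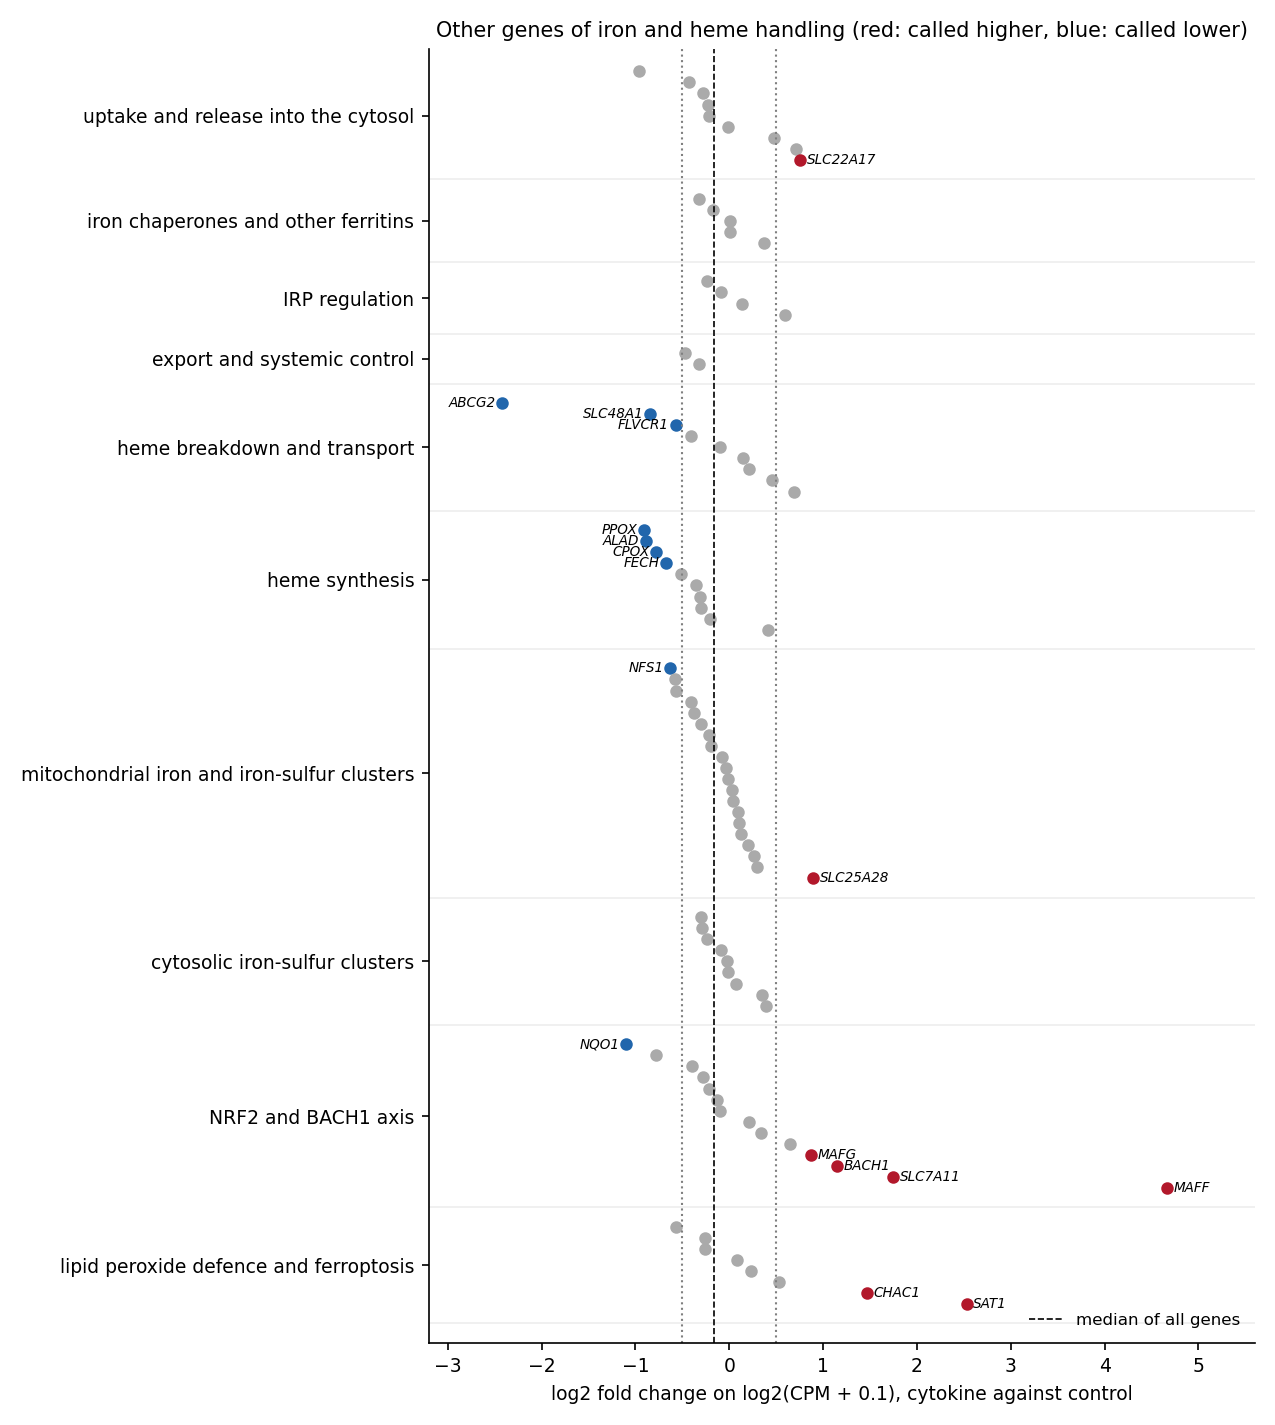
Log2 fold change (cytokine over control) of the 90 other iron and heme genes by group, with red points for genes called higher by limma, blue for genes called lower and grey for the rest; dotted lines mark the fold threshold of 0.5 and the dashed line the median of all genes (-0.17). SAT1 (2.53) and MAFF (4.67) rose, ABCG2 (-2.42) fell, and the called genes of heme synthesis all lie below 0.

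The 10 measured genes of heme synthesis, the pathway that inserts iron into protoporphyrin, had the lowest median of the 10 groups, -0.43. 4 were called lower and none higher, beside 17.5% and 9.52% of all genes. ALAD, which joins the first building blocks into a pyrrole, stood at 89.8, 88.7, 91.5 and 85.0 CPM in control libraries and at 54.2, 53.2, 37.9 and 47.6 CPM in cytokine libraries A to D. Every cytokine library lay below every control, a log2 fold change of -0.89 ± 0.13 (SE, FDR 0.000491 by limma). The late steps PPOX, CPOX and FECH, the last of which inserts iron, changed by -0.91, -0.78 and -0.68 (FDR 0.00792, 0.0133 and 0.0110 by limma). FECH fell from 23.8 ± 3.94 to 14.8 ± 2.598 CPM (SD, n = 4). All 4 were also called with TMM scaling, at -0.75 for PPOX, -0.74 for ALAD, -0.63 for CPOX and -0.52 for FECH.

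Of the 6 uncalled genes of heme synthesis, ALAS1, the rate-limiting first enzyme, had the highest mean CPM, with 65.6 ± 6.02 and 51.1 ± 4.03 CPM (SD, n = 4) and a log2 fold change of -0.36 (FDR 0.0350 by limma), under the fold threshold, and -0.20 (FDR 0.192 by limma) with TMM scaling. UROS, the exception, stood at 37.7 ± 2.29 and 50.2 ± 3.39 CPM, a log2 fold change of 0.41 (FDR 0.0139 by limma) that was called with TMM scaling at 0.57. UROS and the count that follows were picked after their values were seen. 8 of the 10 were lower in the cytokine library of all 4 pairs, beside 43.6% of all genes, and 5 were lower without overlap between the groups, beside 21.9% of all genes.

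**Figure D5:**
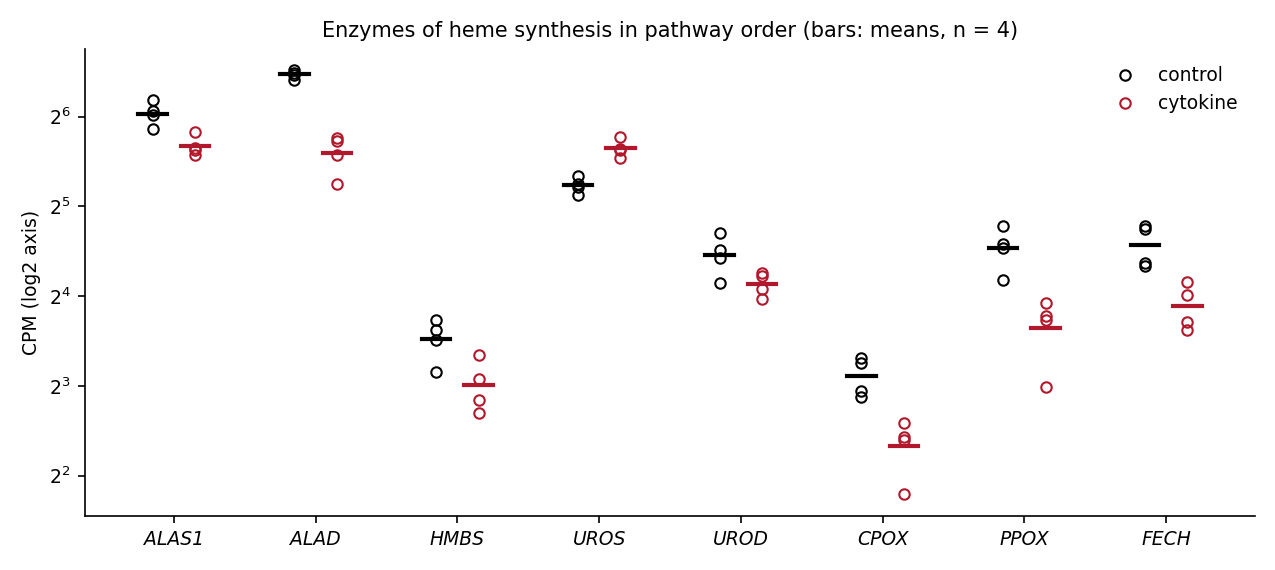
CPM of 8 enzymes of heme synthesis, in the order of the pathway, in each control (black) and cytokine (red) library on a log2 axis, with bars for the means (n = 4). ALAS1, ALAD, CPOX, PPOX and FECH lie lower in every cytokine library than in any control, and UROS lies higher (37.7 CPM in controls and 50.2 CPM with cytokines).

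Of 9 genes of heme breakdown and transport 3 were called lower and none higher, beside 17.5% and 9.52% of all genes. All 3 are transport genes. The breakdown genes HMOX2 (-0.10, FDR 0.834), BLVRB (0.21, FDR 0.471) and BLVRA (0.69, FDR 0.140) were not called by limma. With the pair as a block BLVRA was called higher (FDR 0.000354 by limma), as were 11.6% of all genes. ABCG2, an exporter of heme and porphyrins, fell from 3.43 ± 1.85 to 0.560 ± 0.362 CPM (SD, n = 4), which is a log2 fold change of -2.42 ± 0.50 (SE, FDR 0.00441 by limma). SLC48A1, which moves heme out of lysosomes, changed by -0.84 (FDR 0.00441 by limma). FLVCR1, named as a heme exporter and also a choline transporter, changed by -0.57 (FDR 0.02001 by limma) and was not called with TMM scaling, at -0.41. PGRMC2, with the highest mean CPM of the group over the 8 libraries, was not called (0.15, FDR 0.535 by limma).

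Of 9 other uptake genes 1 was called (11.1%, beside 27.0% of all genes), and their median log2 fold change was -0.21 beside -0.17. With the pair as a block 2 were called higher and 1 lower, beside 11.6% and 23.8% of all genes. The 1 lower was SLC39A8, at -0.96 (FDR 0.0192 by limma with the block), which is named for that call. SLC22A17, a receptor for lipocalin-bound iron, stood at 723, 648, 601 and 493 CPM in control libraries and at 1189, 1144, 994 and 828 CPM in cytokine libraries A to D. Every cytokine library lay above every control, a log2 fold change of 0.75 ± 0.17 (SE, FDR 0.00736 by limma). SLC11A2, the ferrous iron transporter DMT1, was picked after its values were seen, because its groups did not overlap. It stood at 28.7 to 31.7 CPM in controls and 41.6 to 43.4 CPM with cytokines, a log2 fold change of 0.48 (FDR 0.00499 by limma) just under the fold threshold, and was called with TMM scaling at 0.63.

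Among 2 measured genes of export and systemic control none was called, beside 27.0% of all genes. SLC40A1, the iron exporter ferroportin, whose messenger also held a matched hairpin in the 5′ UTR, had means of 10.1 and 7.82 CPM (-0.32, FDR 0.272 by limma). TMPRSS6, a protease that lowers hepcidin in the liver, had 287 ± 19.2 and 206 ± 9.93 CPM (SD, n = 4), which is a log2 fold change of -0.48 (FDR 0.00732 by limma) under the fold threshold. None of the 4 measured regulators of the iron regulatory proteins and none of 5 iron chaperones was called (27.0% of all genes). PCBP1 stood at 192 and 249 CPM (0.37, FDR 0.129 by limma), although with TMM scaling PCBP1 was called at 0.53 (FDR 0.0319 by limma). CUL1, a scaffold of the ubiquitin ligase that degrades IRP2, had 18.1 ± 6.05 and 26.7 ± 6.48 CPM (SD, n = 4), differing by 0.59 on the log2 scale (FDR 0.0930 by limma), and was called at 0.75 with TMM scaling (FDR 0.0247 by limma) and with the pair as a block (FDR 6.19e-05 by limma). HERC2, a ubiquitin ligase with the highest mean CPM of these regulators, had 134 and 114 CPM (-0.24, FDR 0.211 by limma).

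Of 20 genes of mitochondrial iron and iron-sulfur clusters 1 was called higher and 1 lower, beside 9.52% and 17.5% of all genes. SLC25A28, the iron importer mitoferrin-2, rose from 19.96 ± 2.55 to 37.3 ± 5.05 CPM (SD, n = 4), which is a log2 fold change of 0.90 ± 0.14 (SE, FDR 0.000872 by limma). NFS1, the desulfurase that supplies sulfur to the clusters, changed by -0.63 (FDR 0.00486 by limma) and was not called with TMM scaling, at -0.48. HSPA9, a chaperone of cluster transfer with the highest mean CPM of this group, was not called (0.20, FDR 0.441 by limma). None of 9 genes of cytosolic cluster assembly was called, beside 27.0% of all genes. MMS19 had the highest mean CPM (-0.03, FDR 0.869 by limma), and NUBP1 was called with TMM scaling at 0.51 (0.35 on CPM, FDR 0.0744 by limma).

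Of 14 genes of the NRF2 and BACH1 axis, which responds to oxidants and heme and controls ferritin and HMOX1 among others, 4 rose and 1 fell. That is 35.7% called, beside 27.0% of all genes. MAFF, a small MAF partner of both factors, stood at 1.60, 1.67, 1.85 and 1.33 CPM in control libraries and at 33.0, 33.6, 79.9 and 39.2 CPM in cytokine libraries A to D. Cytokine library C was the highest and no library overlapped, with a log2 fold change of 4.67 ± 0.27 (SE, FDR 4.25e-07 by limma). BACH1, a repressor released by heme, rose by 1.15 and MAFG by 0.87 on the log2 scale (FDR 0.00365 and 0.000876 by limma). SLC7A11, the cystine importer, was near the limit of detection, at 0.0949 ± 0.0793 and 0.568 ± 0.312 CPM (SD, n = 4), with 1.75 ± 0.46 (SE, FDR 0.0146 by limma). NQO1, a quinone reductase and target of NRF2, fell from 2.67 ± 0.928 to 1.17 ± 0.343 CPM (SD, n = 4), and NFE2L2, the gene of NRF2, was not called (0.34, FDR 0.0841 by limma). OSGIN1, a target of NRF2, was called with TMM scaling at 0.80 (0.65 on CPM, FDR 0.0554 by limma). With the pair as a block 5 of the 14 were called higher and 2 lower, beside 11.6% and 23.8% of all genes. SRXN1, at -0.79, was called lower in that fit (FDR 0.0238 by limma) and not without the block (FDR 0.0823 by limma). The median of the 14 was 0.06 on CPM, beside -0.17 over all genes.

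Of 8 genes of lipid peroxide defence and ferroptosis 2 rose (25.0% called, beside 27.0% of all genes). SAT1, which breaks down polyamines, stood at 9.13, 11.3, 10.7 and 12.2 CPM in control libraries and at 68.1, 64.2, 61.8 and 57.2 CPM in cytokine libraries A to D. The groups were far apart, with a log2 fold change of 2.53 ± 0.13 (SE, FDR 1.38e-07 by limma). CHAC1, which degrades glutathione and is induced by stress of the endoplasmic reticulum, rose by 1.47 (FDR 0.000622 by limma). GPX4, the peroxidase that protects membrane lipids, had the highest mean CPM of the group over the 8 libraries and was not called (156 and 166 CPM, 0.08, FDR 0.756 by limma). SLC3A2, the partner of SLC7A11 in the cystine importer, stood at 124 and 184 CPM (0.53, FDR 0.109 by limma) and was called at 0.69 with TMM scaling.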

How the data were processed

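The authors cleaned the reads with SOAPnuke, aligned them with TopHat2 2.1.1 to GRCh38, counted them with HTSeq 0.9.1 on Ensembl 107 and deposited CPM for genes above 0.5 CPM in at least 4 samples. Another 4 columns of values in that table were not used. All values were whole multiples of 1 read (tolerance 0.01), from which reads were recovered. Depth was 36577438 to 40117636 reads on genes, and a count of 0 allows 3 reads (0.0587 to 0.0641 CPM). Such limits cover counting error only.

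The 7 members and the iron, heme and marker lists were chosen with earlier results of these data known. R 4.3.3 ran the main test, limma 3.58.1 with an intensity trend, on log2 values after adding 0.1 CPM, 4 against 4 libraries, no block, adjusted over 16525 genes. Single values used 2-sided exact permutation tests, whose smallest p is 0.0286. Alternatives were TMM and median-of-ratios scaling, pseudocounts 0.5 and 1, a mean of at least 1 CPM, no trend, edgeR 4.0.16 and DESeq2 1.42.0 on recovered reads, the replicate block in limma on CPM and in edgeR with TMM, a term for the ending of the column names, and leaving out each library. EdgeR without TMM, limma with both TMM scaling and the block, fits within libraries A and B or C and D, their interaction and ratios within pairs were added after seeing the data. The columns carry no replicate number, so the shared first part of their names made the pairs. Deviations from the group means correlated by 0.46, 0.50, 0.75 and 0.68 within pairs A to D, and by 0.45 and 0.49 between A and B, which are therefore not told apart. No library was a copy of another (chi-square per gene of at least 5.90 within a group). Named genes are the members and, of each list group, up to 4 called genes with the largest change and the gene of highest mean CPM. Coordinates, lengths and transcripts came from GENCODE 29 (GRCh38). Fits were tested on simulated counts that held no differences between pairs, so that test does not cover the spread between pairs found here. Python was 3.11.15, with scipy 1.17.1, numpy 2.4.6, pandas 2.3.3 and matplotlib 3.10.9.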

Additional observations from a re-analysis of the deposited data

Results flagged for a closer look

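FTH1 in cytokine library C stood at 1059.6 CPM, far above cytokine libraries A, B and D at 842, 822 and 829 CPM. The gap to the nearest library was 0.916 of the group's range, above the limit of Dixon's test for 4 values. By chance about 1 of 20 groups passes that limit, and 12 groups (6 members in both conditions) were looked at. Control library C was also the highest of its group for FTH1, at 1154 CPM. Without cytokine library C the log2 fold change of FTH1 was -0.27.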

How the results depend on the processing

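The direction and the lack of a call held under all alternatives run for FTH1, NCOA4 and ACO1. FTL turned from -0.07 to 0.090 with TMM scaling (also with the block in limma and in edgeR), 0.088 with edgeR, 0.10 with median-of-ratios scaling and DESeq2, and 0.033 without control library C. IREB2 turned from -0.13 to 0.025 with TMM scaling (also with the block in limma), 0.024 with edgeR and the block, 0.022 with edgeR, 0.030 with median-of-ratios scaling and 0.029 with DESeq2. These scalings add about 0.16 to every gene by construction. With the replicate block TFRC was called under TMM scaling, at 0.61 by limma and 0.62 by edgeR, and the block changed no other member's call. The iron genes called higher, 8, became 15 with TMM scaling and with edgeR, 16 with median-of-ratios scaling, 19 with DESeq2, 13 with the replicate block and with the term for the column endings, 18 with the block under TMM in limma and edgeR, and 14 without control library C. Those called lower, 9, became 15 with the replicate block and 14 with the term for the column endings. Over all genes the share called higher was 9.52% in the main fit, 13.1% with TMM scaling and with edgeR, and 13.3% with median-of-ratios scaling. It was 14.3% with DESeq2, 11.6% with the replicate block, 11.1% with the column endings, 15.9% with the block under TMM and 10.3% without control library C. The share of all genes called lower was 17.5%, 23.8% with the replicate block and 22.2% with the column endings. The cause of the other shifts was not tested. Leaving out 1 library moved log2 fold changes between -0.27 and -0.12 for FTH1, -0.13 and 0.03 for FTL, 0.21 (without cytokine library C) and 0.69 (without cytokine library B) for TFRC, -0.27 and -0.08 for NCOA4, -0.25 and -0.02 for IREB2, and -0.36 and -0.05 for ACO1. The log2 ratio difference of FTH1 to FTL ranged from -0.16 to -0.08, genes called from 3899 to 4339, and iron genes called higher from 8 to 14 and lower from 7 to 12. With 4 libraries a group, the 95% interval of TFRC (-0.33 to 1.24) does not limit it to a small change.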

Other observations

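NCOA4 and ACO1 spread less among cytokine libraries than among controls, which was noticed in the data and not tested. The SD of NCOA4 was 24.9 CPM in controls and 3.27 CPM with cytokines, and that of ACO1 was 5.63 and 1.70 CPM. In both genes control library C was the highest of the 8 libraries, at 182 and 27.8 CPM, and without it the log2 fold changes were -0.08 and -0.05.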
